A study of Taeniopygia guttata with 21 samples.

Results

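Zebra finch genes that make or bind retinoic acid were followed over the embryonic skin: the synthesis enzyme genes ALDH1A1 and ALDH1A2 and the binding protein gene CRABP1. They are the 3 table entries, of 18202 genes in all, that carry these symbols, and all 3 passed the filter on low values. The libraries came from the skin of wild-type zebra finch (Taeniopygia guttata) embryos at stage HH28, early in skin development. The series looked for molecules restricted to the future colour domains of finch plumage. Dorsal skin was taken from the anterior back, the saddle (middle of the back) and the posterior back, and ventral skin from the flank and the anterior, ventral-most and posterior belly. Each of the 7 locations has 3 libraries, which gives 9 dorsal and 12 ventral libraries, and nothing was treated or mutated. The libraries of a location bear the replicate numbers 3, 8 and 11, and the labels do not say whether these are separate embryos, so every p-value measures the spread between these libraries only.

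Retinoic acid is a small signalling molecule that cells make from vitamin A. Retinol is first oxidised to retinal, and the retinal dehydrogenases encoded by ALDH1A1, ALDH1A2 and ALDH1A3 then oxidise retinal to retinoic acid, which acts through the nuclear receptors RAR and RXR and is broken down by CYP26 enzymes. CRABP1 holds retinoic acid in the cytosol. In vertebrate embryos ALDH1A2 makes much of the retinoic acid of the trunk mesoderm, and in the chick retinoic acid given to embryonic skin can turn scales into feathers.

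Levels are normalised read counts, that is, reads per gene divided by a size factor of the library by the authors, and are not divided by gene length, so they are compared between samples and not between genes. Libraries held between 15.7 M and 23.0 M reads dorsally and between 12.9 M and 20.2 M reads ventrally (M, mega). Differences are between means of log2(value + 1), given with their SE (standard error) from a limma model that holds all 7 locations. That model does not hold the replicate number, which enters only where a replicate block is named. A gene is called where limma's Benjamini-Hochberg adjusted p over the 14005 genes tested is below 0.05. Leaving out all libraries of a replicate number lowered the number of genes called in every comparison, as listed at the end. The labelled tissue was checked on skin markers. The 4 epidermal genes with a symbol summed to between 16407 and 34373 in dorsal libraries and between 6624 and 16511 in ventral libraries. The 5 dermal genes with a symbol summed to between 134452 and 216497 dorsally and between 135773 and 272716 ventrally.

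ALDH1A1 lies on chromosome Z, from 16195088 to 16218427 on the plus strand in the table's own coordinates, whose genome build is not given in the sources used here. It had next to no reads in dorsal skin and was highest in the flank. Normalised counts were 1189.9, 259 and 354 in flank replicates 3, 8 and 11. They were 156, 145 and 32.8 in ventral posterior skin, and 23.0, 46.3 and 52.4 in ventral-most skin. In ventral anterior skin the 3 libraries disagreed, with 89.5 in replicate 3, 3.68 in replicate 8 and no read in replicate 11. Dorsally, dorsal anterior replicate 11 had 1 read, dorsal saddle replicate 8 had 2 reads and every other library had none. The lowest flank library therefore stood above every other library of the series, whereas the ventral posterior, ventral-most and ventral anterior ranges overlapped each other, and ventral anterior skin overlapped the dorsal libraries.

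The 3 dorsal reads of ALDH1A1 stood against 2075 ventral reads. Per size factor, ventral skin exceeded dorsal skin 602-fold, with an exact 95% counting interval of 206 to 2921, and the flank alone exceeded dorsal skin 1870.2-fold (639 to 9078). Ventral posterior skin exceeded dorsal skin 357-fold (121 to 1744), ventral-most skin 133-fold (44.4 to 654) and ventral anterior skin 105-fold (34.9 to 518). Replicate 3 set the ventral anterior fold: it held 92 of the 96 reads, and without it the remaining 4 reads gave 6.61-fold (1.12 to 45.2). Without flank replicate 3, which held 968 of 1574 flank reads, the flank fold was 1016 (346 to 4942). Leaving out libraries in this ratio was chosen after seeing the data. Dorsal posterior skin had 0 reads against 287 in ventral posterior skin, which makes it at least 122-fold lower when a floor of 3 reads over the group is put in its place. The libraries carry no molecular identifiers, so these intervals and floors cover counting error only. In the fit dorsal skin was lower than ventral skin by a log2 difference of -5.65 (SE 0.61, limma adjusted p = 6.88e-06), in which the dorsal mean is set by the added 1 rather than by reads. Without the flank the log2 difference was -4.65 (adjusted p = 0.000103). Here and below, without the flank means that the flank was left out of the ventral mean only. Its libraries stayed in the fit and still added to the spread. In bulk tissue fewer cells with a transcript and less RNA per cell cannot be told apart, for ALDH1A1 or for any gene below.

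Among ventral locations, the flank was higher in ALDH1A1 than the mean of the other 3 by 4.0 on the log2 scale (SE 0.93, limma adjusted p = 0.0249). Ventral anterior skin was lower than the other ventral locations by the same kind of comparison, at -4.0 (SE 0.93, adjusted p = 0.0231). Its replicates 8 and 11 held 4 reads and no read, so the added 1 weighs on that difference. Its replicate 3, with 89.5 normalised counts, stood above every ventral-most library. Neither ventral-most skin (-0.82, adjusted p = 0.997) nor ventral posterior skin (0.82, adjusted p = 0.904) differed from the rest at the threshold. Both calls rest on few libraries: leaving out any 1 of the 3 flank libraries ended the flank call (adjusted p = 0.160 without replicate 3, 0.0653 without 8 and 0.0543 without 11), and leaving out ventral anterior replicate 8 or 11 ended the ventral anterior call (0.139 and 0.216). The fit also takes its spread from the dorsal libraries, which lie near 0. With only the ventral libraries in limma the SE was 1.07 and neither was called (adjusted p = 0.103 for the flank and 0.100 for ventral anterior skin). Ventral anterior against ventral posterior skin gave -3.61 (SE 1.13, adjusted p = 0.149), which was not called, and gave -5.41 without ventral anterior replicate 3 (adjusted p = 0.00194).

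**Figure D1:**
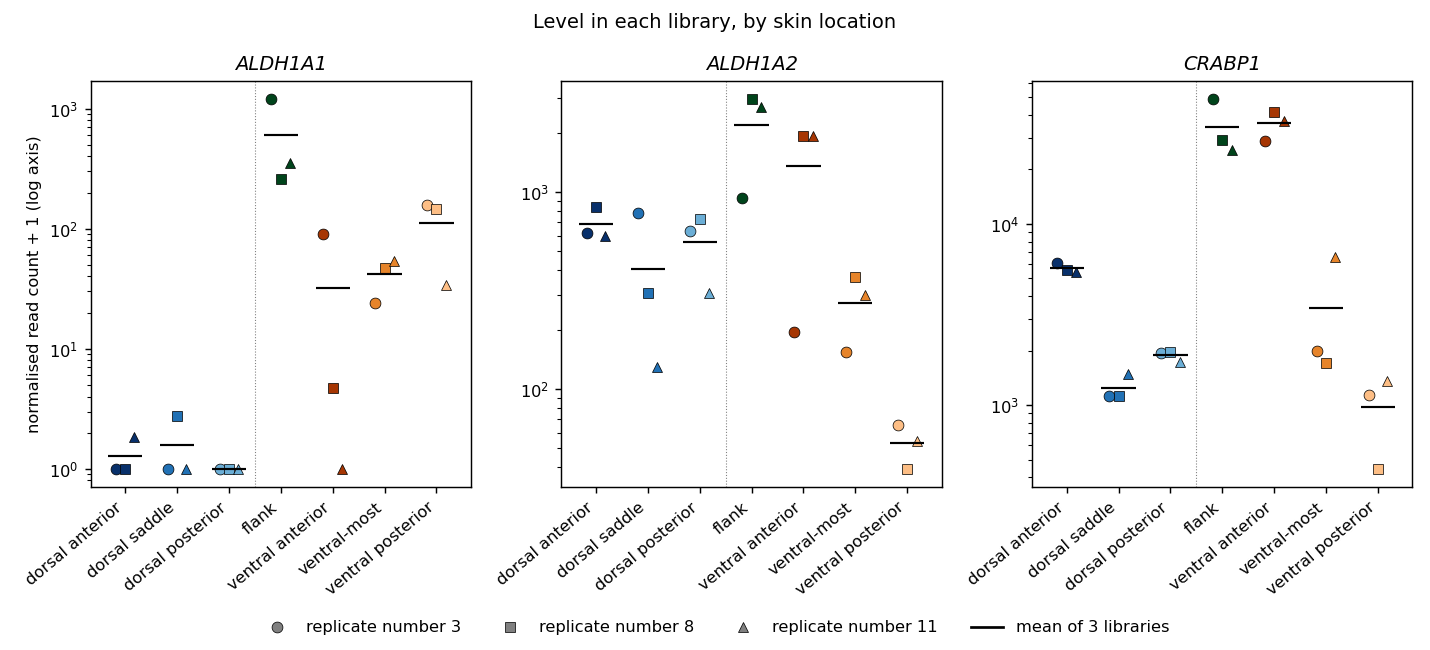
Normalised read counts of ALDH1A1, ALDH1A2 and CRABP1 in each library by location, on a logarithmic axis of value + 1, with markers by replicate number and a black line at the mean of the 3 libraries. ALDH1A1 is near 0 at the 3 dorsal locations, ALDH1A2 is lowest in ventral posterior skin, and CRABP1 has its 6 highest libraries in the flank and ventral anterior skin.

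ALDH1A2 lies on chromosome 10, from 6786365 to 6838567 on the plus strand. Unlike ALDH1A1 it had reads in every library, and its low point was ventral posterior skin. Flank replicates 3, 8 and 11 had 928, 2943 and 2688 normalised counts, and ventral anterior replicates had 195, 1931 and 1920.3. Ventral-most skin had 153, 367 and 300.0, and ventral posterior skin had 64.8, 38.3 and 53.3. The 3 ventral posterior libraries lay below every other library of the series, and ventral anterior replicate 3 lay far below the other two libraries of its location.

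On the back, ALDH1A2 had 616, 839 and 596 normalised counts in dorsal anterior skin, 783, 307 and 128 in dorsal saddle skin, and 633, 729 and 305 in dorsal posterior skin. The 3 dorsal ranges overlapped. The means were 684 ± 135 in dorsal anterior, 406 ± 338 in dorsal saddle and 556 ± 222 in dorsal posterior skin, against 2186 ± 1097 in the flank, 1349 ± 999 in ventral anterior, 273 ± 110 in ventral-most and 52.2 ± 13.3 in ventral posterior skin (SD, n = 3 each). Ventral skin thus held both the highest and the lowest locations of ALDH1A2, with the dorsal locations between them.

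The dorsal minus ventral difference of ALDH1A2 was 0.30 (SE 0.41, limma adjusted p = 0.709), which did not pass the threshold. It was 1.70 among libraries numbered 3, 0.10 among those numbered 8 and -0.91 among those numbered 11, so its sign was not shared. Without the flank it was 1.07 (SE 0.44, adjusted p = 0.115), still not called. Ventral anterior skin was higher than ventral posterior skin by 4.11 (SE 0.75, adjusted p = 0.00726), and the level ratio within a replicate number was 3.0, 50.4 and 36.0 for numbers 3, 8 and 11. That call ended when all libraries numbered 8 (adjusted p = 0.435) or 11 (0.174) were left out. Dorsal anterior minus dorsal posterior was 0.38 (SE 0.75, adjusted p = 0.988). The difference between those anterior-posterior differences was -3.74 (SE 1.07, adjusted p = 0.130), not called, and it was -4.84 (adjusted p = 0.00924) without ventral anterior replicate 3.

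The flank was higher in ALDH1A2 than the mean of the other ventral locations by 3.09 (SE 0.62, limma adjusted p = 0.00989), and it exceeded ventral-most skin within replicate numbers 3, 8 and 11 by 6.08-fold, 8.02-fold and 8.96-fold. Ventral posterior skin was lower than the other ventral locations, at -3.88 (SE 0.62, adjusted p = 0.00299). Ventral anterior skin (1.60, SE 0.62, adjusted p = 0.226) and ventral-most skin (-0.81, SE 0.62, adjusted p = 0.913) were not called. Without flank replicate 8 the flank difference was 2.79 and no longer called (adjusted p = 0.0775). Without all libraries numbered 8 or 11 neither the flank (0.291 and 0.0701) nor the ventral posterior difference (0.403 and 0.103) was called. Without ventral anterior replicate 3 the ventral anterior difference was 2.70 and called (adjusted p = 0.00834).

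CRABP1 lies on chromosome 10 as well, from 503916 to 517304 on the plus strand. It separated the ventral locations into a high pair, the flank and ventral anterior skin, and a low pair, ventral-most and ventral posterior skin. Flank replicates 3, 8 and 11 had 48708, 29119 and 25575 normalised counts, and ventral anterior replicates had 28770.3, 41790.4 and 37281. Ventral-most skin had 1987, 1707 and 6585, and ventral posterior skin had 1130.3, 443 and 1349.8. Every library of the high pair lay above every other library of the series, and ventral-most replicate 11 stood well above the other two libraries of its location.

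On the back, CRABP1 was highest at the anterior end. Dorsal anterior libraries had 6100.2, 5561 and 5436 normalised counts, dorsal saddle libraries 1125, 1115 and 1476, and dorsal posterior libraries 1943, 1967 and 1730.0. None of these 3 dorsal ranges overlapped. The location means were 5699 ± 353 in dorsal anterior, 1239 ± 205 in dorsal saddle and 1880.0 ± 131 in dorsal posterior skin, against 34467 ± 12459.8 in the flank, 35947 ± 6612 in ventral anterior, 3426 ± 2739 in ventral-most and 975 ± 473 in ventral posterior skin (SD, n = 3 each).

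CRABP1 averaged lower over the dorsal than over the ventral locations, with a log2 difference of -1.64 (SE 0.23, limma adjusted p = 7.76e-05). The difference was -1.66, -1.26 and -2.00 within replicate numbers 3, 8 and 11. Without the flank the difference was -0.91 (adjusted p = 0.0157). Not every ventral location lay above the back: the ventral posterior mean (975) was below those of all 3 dorsal locations. The ventral-most mean (3426) was below that of dorsal anterior skin (5699). Along the belly, ventral anterior skin was higher than ventral posterior skin by 5.34 (SE 0.42, adjusted p = 1.55e-06), the 3rd smallest p of all genes tested in that comparison. The ratio of levels within a replicate number was 25.5, 94.2 and 27.6. Dorsal anterior skin exceeded dorsal posterior skin by 1.60 (SE 0.42, adjusted p = 0.0590), which was not called, although the ranges did not overlap. With the replicate number as a block its adjusted p was 0.0284, which was called.

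The anterior-posterior difference of CRABP1 was smaller on the back than on the belly, with a difference of -3.74 on the log2 scale (SE 0.60, limma adjusted p = 0.00847). That call ended when all libraries numbered 3 (-4.10, adjusted p = 0.104) or 8 (-3.08, adjusted p = 0.376) were left out. With a replicate number left out, 0 to 37 of all genes were called in this comparison, against 116 in the main fit. Dorsal anterior skin was higher than the other dorsal locations by 1.91 (SE 0.37, adjusted p = 0.00747), a call that ended without dorsal anterior replicate 3 (1.86, adjusted p = 0.0540). Dorsal saddle (-1.41, SE 0.37, adjusted p = 0.259) and dorsal posterior skin (-0.49, SE 0.37, adjusted p = 0.777) did not differ from the other dorsal locations at the threshold. ALDH1A2 gave 0.74 for dorsal anterior, -0.92 for dorsal saddle and 0.18 for dorsal posterior skin (SE 0.65 each), with no call.

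Each ventral location differed in CRABP1 from the mean of the other 3, in comparisons that share libraries. The flank and ventral anterior ranges overlapped each other. The flank was higher by 2.90 (SE 0.35, limma adjusted p = 0.000169) and ventral anterior skin by 3.03 (SE 0.35, adjusted p = 7.17e-05). Ventral-most skin was lower, at -1.84 (SE 0.35, adjusted p = 0.0177), and so was ventral posterior skin, at -4.08 (SE 0.35, adjusted p = 4.31e-06). The ventral-most call ended without ventral-most replicate 3 (-1.59, adjusted p = 0.164) or 8 (-1.48, adjusted p = 0.190), and in edgeR (-1.63, adjusted p = 0.0683).

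**Figure D2:**
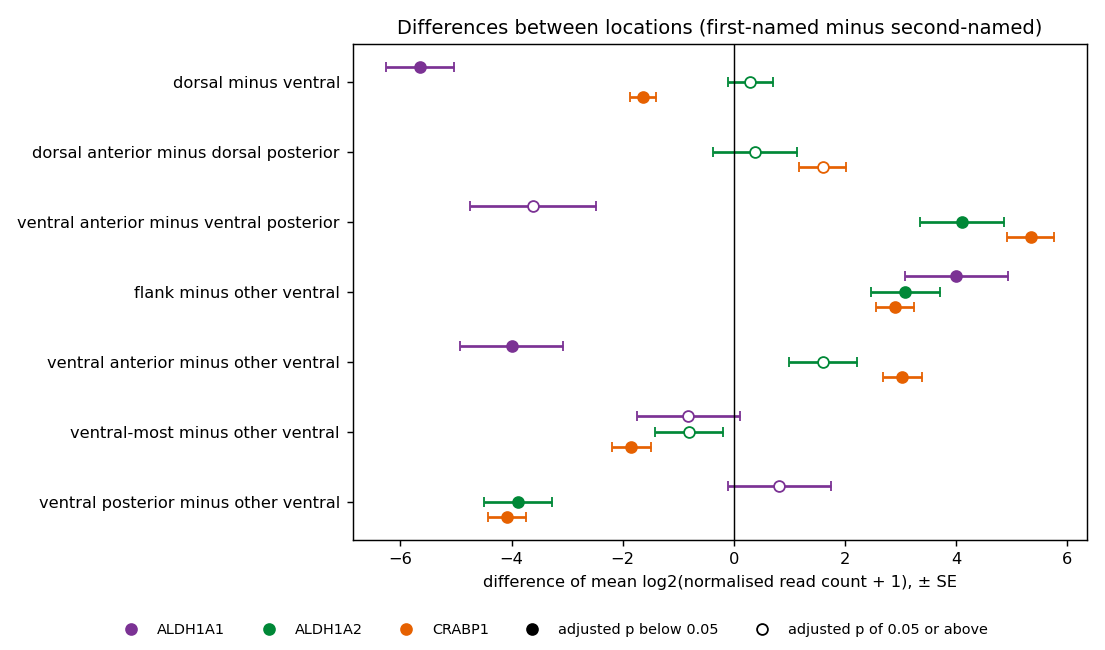
Log2 differences of ALDH1A1, ALDH1A2 and CRABP1 in each comparison, with the first-named group minus the second, error bars of 1 SE of the limma fit, and filled symbols where limma's adjusted p is below 0.05. The flank difference is positive and called for all 3 genes, the ventral posterior difference is negative for ALDH1A2 and CRABP1, and ALDH1A1 has no symbol for dorsal anterior minus dorsal posterior.

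Set side by side, all 3 genes differed among the 7 locations, where 15.4% of all genes tested were called. The adjusted p was 9.30e-05 for ALDH1A1, 0.00219 for ALDH1A2 and 2.82e-07 for CRABP1. Without all libraries numbered 8 it was 0.0633 for ALDH1A1 and 0.280 for ALDH1A2, and without those numbered 11 it was 0.0726 for ALDH1A2. The distance between the highest and the lowest location mean was 8.90, 5.22 and 5.34 on the log2 scale in the same order. These do not rank the genes, since the lowest ALDH1A1 location, dorsal posterior skin, had no reads and its mean is the added 1. The ALDH1A1 distance ran from 6.60 to 12.2 over the settings other than leaving out a library or a replicate number. Between dorsal and ventral skin ALDH1A1 and CRABP1 were called and ALDH1A2 was not, where 17.2% of all genes were called and 7.89% were called lower dorsally. In the flank all 3 were called higher, where 3.05% of genes were called and 1.61% were called higher. These comparisons share libraries, and the 3 genes were chosen for their pathway with earlier results known, so their joint count is a description.

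Between ventral anterior and ventral posterior skin, ALDH1A2 and CRABP1 were called among 1.76% of all genes. CRABP1 alone was called for the difference between the anterior-posterior differences of back and belly, where 0.828% of genes were. In ventral anterior skin against the other ventral locations ALDH1A1 and CRABP1 were called in opposite directions, where 3% of genes were called. Ventral-most skin gave CRABP1 alone (0.678% of genes called), and ventral posterior skin gave ALDH1A2 and CRABP1 (1.1%). Within the back only dorsal anterior against the other locations gave a call, for CRABP1 (2.05%). The share of all genes called was 2.27% for dorsal anterior against dorsal posterior, 0.143% for dorsal saddle and 0.864% for dorsal posterior skin against the rest. No test of ALDH1A1 within the back is reported, where it had 3 reads.

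Ordered by mean level, ALDH1A1 ran from the flank through ventral posterior, ventral-most and ventral anterior skin to the 3 dorsal locations. The flank and ventral posterior ranges did not overlap, and all other neighbours in that order did. ALDH1A2 ran from the flank through ventral anterior, dorsal anterior, dorsal posterior, dorsal saddle and ventral-most to ventral posterior skin, and only the last pair of neighbours did not overlap. CRABP1 ran from ventral anterior skin, flank and dorsal anterior through ventral-most, dorsal posterior and dorsal saddle to ventral posterior skin. Its flank and dorsal anterior ranges were separate, as were dorsal posterior and dorsal saddle, and the other neighbours overlapped. Ventral posterior skin was thus last for ALDH1A2 and CRABP1 but second for ALDH1A1.

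**Figure D3:**
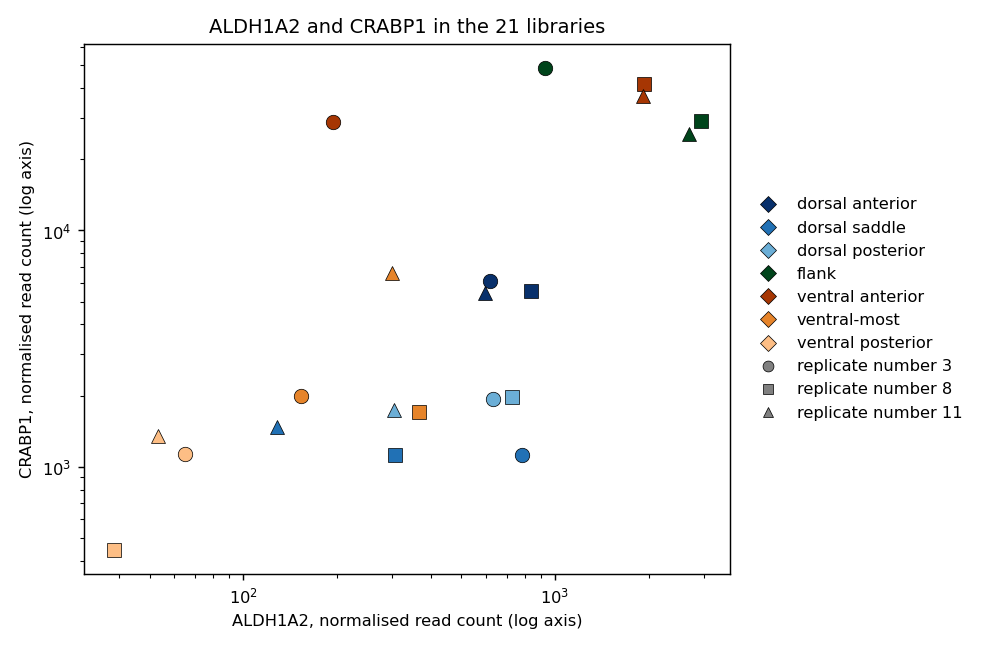
Normalised read count of CRABP1 (vertical) against that of ALDH1A2 (horizontal) in the 21 libraries, both on logarithmic axes, coloured by location with markers by replicate number. Ventral posterior libraries sit at the lower left and flank libraries at the upper right, and ventral anterior replicate 3 has a high CRABP1 level beside a low ALDH1A2 level.

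ALDH1A2 and CRABP1 varied together over the libraries, with a Pearson r of 0.71 on the log2 scale over 21 libraries and 0.83 over the 7 location means. Within the 12 ventral libraries r was 0.86 and within the 9 dorsal libraries 0.44. ALDH1A1 followed neither, with r = -0.13 against ALDH1A2 and 0.28 against CRABP1 over 21 libraries. These are descriptions, since libraries share locations and replicate numbers. The spread within a location also differed between both genes: ventral anterior replicate 3 was the lowest of its location for both, but CRABP1 there was 28770.3 against 41790.4 and 37281, whereas ALDH1A2 was 195 against 1931 and 1920.3.

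Of 69 other genes of retinoic acid synthesis, binding, degradation and response that were listed, 41 had an entry with that symbol, 31 were tested and 2 (TTR and CDX2) had no reads. Of the 31 tested, 12 were called among the 7 locations (15.4% of all genes). Between dorsal and ventral skin 1 was called higher and 5 lower dorsally (9.31% and 7.89% of all genes), or 2 higher and 9 lower with the replicate block. The median dorsal minus ventral difference of the 31 genes was -0.30, against 0.00 over all genes tested. In the flank 2 were called higher and 1 lower (1.61% and 1.44% of all genes), or 4 and 1 with the block. Between ventral anterior and ventral posterior skin 2 were called higher and 1 lower (0.921% and 0.835% of all genes). Between dorsal anterior and dorsal posterior skin 2 were called higher, HOXA2 and RARA, and 1 lower, where 2.27% of all genes were called.

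Among the genes of retinol handling and synthesis, ALDH1A3, the remaining retinal dehydrogenase, was not called (limma adjusted p = 0.647 among locations). Its highest values were in single libraries, with 1577 normalised counts in ventral posterior replicate 11 against 0 and 21.9 in replicates 3 and 8, and 477 in dorsal anterior replicate 11 against 5.25 and 0. Ventral anterior skin was the only location with reads in all 3 libraries, with 52.5, 87.4 and 109.0 in replicates 3, 8 and 11. RETSAT, which saturates retinol, was higher in dorsal skin by 1.81 (SE 0.31, adjusted p = 0.000437), opposite in direction to ALDH1A1 and CRABP1, a call that ended without all libraries numbered 8 (0.0758). Its counts ran from 98.5 to 358 dorsally and from 32.7 to 180.0 ventrally, and the sides overlapped. DHRS3, which reduces retinal back to retinol, was called among locations (adjusted p = 0.0477). It was highest in ventral anterior skin, with 344, 727 and 701, and in the flank, with 698, 523 and 382, and the call ended under many of the alternatives, among them the omission of dorsal anterior replicate 3 (0.0747).

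Among binding proteins and receptors, FABP5, a fatty acid binding protein that can also carry retinoic acid, was lower in dorsal than in ventral skin by -1.32 (SE 0.20, limma adjusted p = 0.000209). Its counts ran from 61.7 to 249 dorsally and from 160 to 704 ventrally, and the sides overlapped. FABP5 was also called among locations (adjusted p = 0.00142), a call that ended without all libraries numbered 3 (0.0849) or 8 (0.157). The receptor gene RXRG had 254, 159 and 254 normalised counts in flank replicates 3, 8 and 11, and no more than 77.4 in any other library. Its flank difference was 4.55 (SE 0.90, adjusted p = 0.00969), and the call ended without flank replicate 3 (adjusted p = 0.0559), or without all libraries numbered 3 (0.191) or 8 (0.291). The receptor gene RARB was higher in the flank than at the other ventral locations by 0.74 (SE 0.14, adjusted p = 0.00944). It had 3214, 3952 and 2959 in the flank and 1454 to 2590 in the other ventral libraries. Its dorsal libraries had 1763 to 3120, a range that overlapped the flank. The flank call of RARB ended without flank replicate 8 (adjusted p = 0.0884), or without all libraries numbered 3 (0.148) or 8 (0.227). RARA was called among the locations (adjusted p = 0.0282) and ranged from 59.7 to 172 over the libraries, and the call ended without ventral anterior replicate 8 (0.0644) or 11 (0.0715), among others. RARA was also called higher in dorsal anterior skin (139, 158 and 115 in replicates 3, 8 and 11) than in dorsal posterior skin (59.7, 65.8 and 65.7).

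Of the degrading enzymes, CYP26A1 alone was found by its symbol in the table. It was not called among locations (limma adjusted p = 0.0551), and was called with the replicate block (0.0457). It had 473 normalised counts in ventral anterior replicate 3 against 105 and 119 in replicates 8 and 11. That library was therefore high in CYP26A1 and low in ALDH1A2 relative to the other two of its location. The dorsal minus ventral difference of CYP26A1 was 0.71 (SE 0.27, adjusted p = 0.0805). CYP26B1, CYP26C1, RARG and CRABP2 are not analysed here.

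Among genes known to respond to retinoic acid, NR2F1, a nuclear receptor gene, was lower in dorsal skin by -2.33 (SE 0.21, limma adjusted p = 1.39e-06). Its dorsal libraries had 9.08 to 47.8 and its ventral libraries 71.6 to 218 normalised counts, with no overlap. The cell cycle gene CCND1 (-0.46, SE 0.11, adjusted p = 0.00555) and RAI14 (-0.39, SE 0.10, adjusted p = 0.00975) were also lower dorsally, and RAI14 was no longer called without the flank (0.107). Without all libraries numbered 8 neither was called (0.128 for CCND1 and 0.0523 for RAI14), and RAI14 was not called without those numbered 11 (0.237). The homeobox gene HOXA2 differed among locations (adjusted p = 4.24e-06). It had 2565, 2429 and 2485 in dorsal anterior skin and 3021, 2778 and 2957 in ventral anterior skin, and was higher in ventral anterior than in ventral posterior skin by 2.84 (SE 0.35, adjusted p = 0.000190), a call that ended without all libraries numbered 8 (0.0647). HOXA2 was lower in the flank than the mean of the other ventral locations by -1.18 (SE 0.28, adjusted p = 0.0303), opposite to CRABP1 and ALDH1A2. That call ended without flank replicate 8 (0.211) or 11 (0.136). The flank was not below each of them. Flank replicates 3, 8 and 11 had 816, 329 and 356, and ventral posterior replicates had 361, 331 and 560, in overlapping ranges. HOXB5 was called among locations (adjusted p = 0.0245), and not without ventral anterior replicate 8 (0.129). Between ventral anterior and ventral posterior skin CCND1 was higher (0.85, adjusted p = 0.0316), a call that ended without ventral anterior replicate 8 (0.158), among others.

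**Figure D4:**
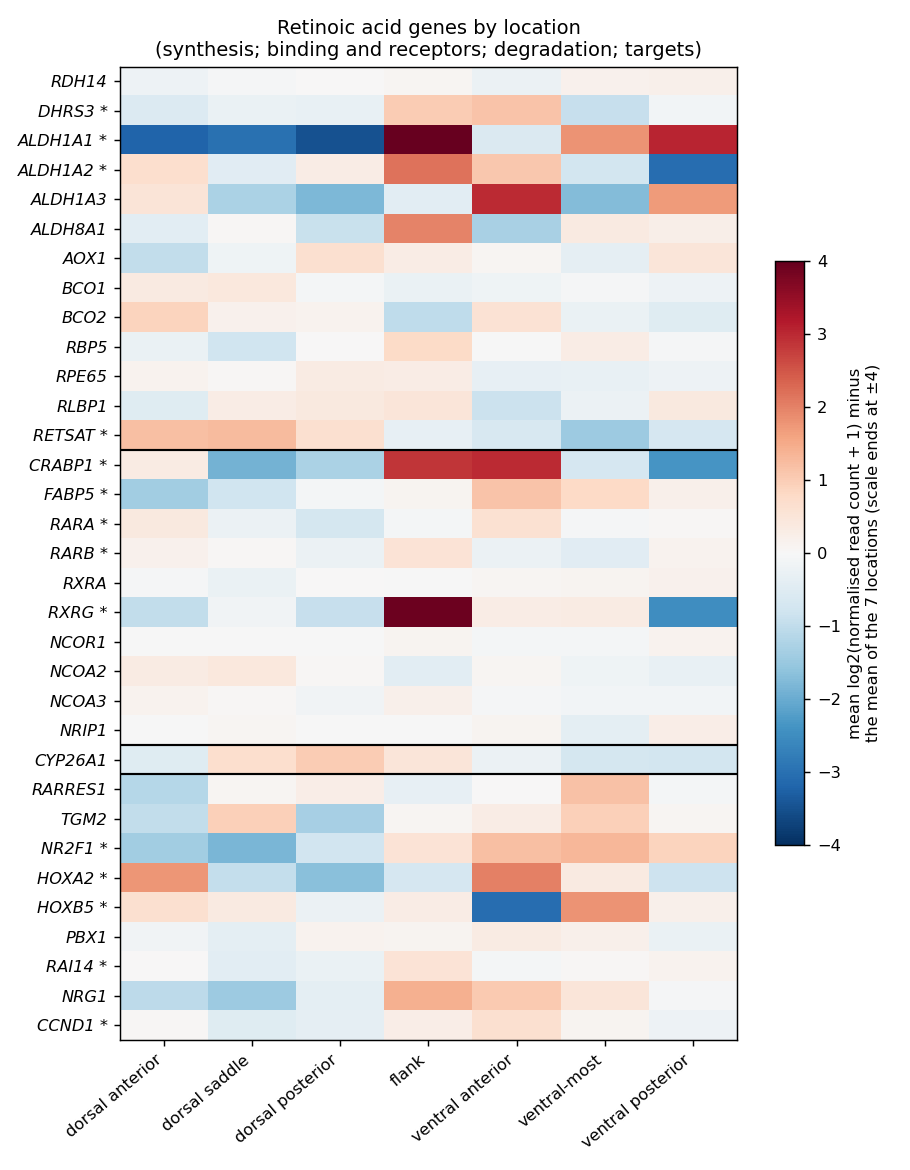
Mean log2(value + 1) per location, minus the mean of the 7 locations for that gene (colour, in log2 units, ending at ±4), for the tested genes of the retinoic acid lists that are reported here, ordered by role with lines between roles. Stars mark genes called among the locations. RXRG is highest in the flank, as ALDH1A1 is, NR2F1 is low at the 3 dorsal locations, and HOXB5 is lowest in ventral anterior skin.

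**Figure D5:**
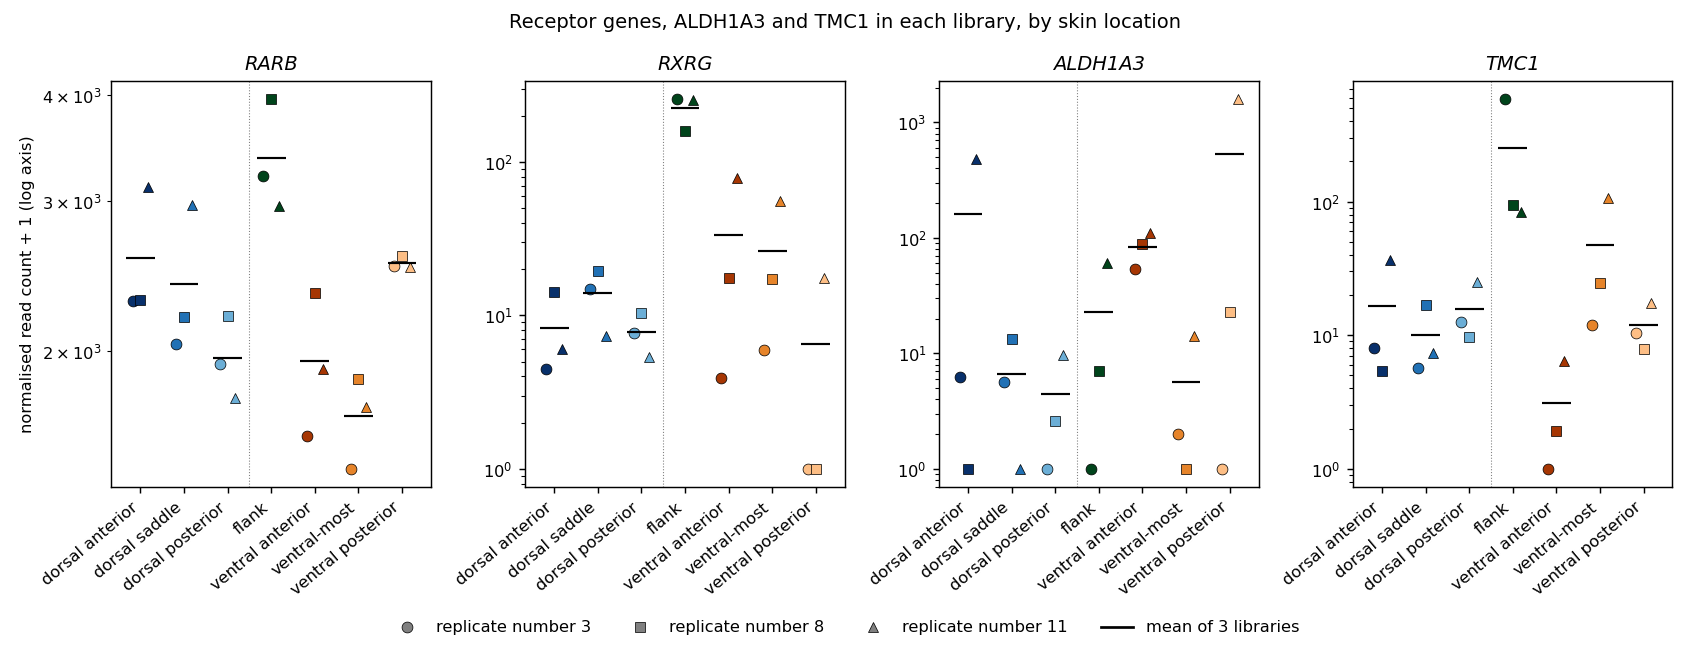
Normalised read counts + 1 of RARB, RXRG, ALDH1A3 and TMC1 (the nearest gene after ALDH1A1) in each library by location, on logarithmic axes that differ between panels, with markers by replicate number and a black line at the mean of the 3 libraries. RXRG is highest in the flank, the flank mean of TMC1 is set by replicate 3, and the ALDH1A3 means of dorsal anterior and ventral posterior skin are each set by replicate 11.

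Genes whose levels followed each member most closely were taken from 7533 tested genes with a symbol and a sufficient level, by Pearson r over the 21 libraries. For ALDH1A1 they were TM6SF1 (r = 0.89, and 0.97 over the 7 location means), HDGFL3, GATA5, MPHOSPH10, CDK19, EPHA3, MARK3 and TNFAIP8L3, with r down to 0.82. TM6SF1 averaged 2214 normalised counts in the flank, 1653 in ventral posterior skin and 265 in dorsal anterior skin. EPHA3, an ephrin receptor gene, averaged 33770.4 in the flank and 1502 in ventral anterior skin. GATA5, a transcription factor gene of lateral plate tissue, was highest in ventral-most (2559) and ventral posterior skin (2412) and not in the flank (597), unlike ALDH1A1.

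For ALDH1A2 the closest genes were CNTN4 (r = 0.80, and 0.95 over the location means), POLR1B, MAPK11, DPP10, CNKSR2, KCNK1, CRABP1 and RXRG, with r down to 0.71. CNTN4, a gene of the contactin family of neuronal adhesion molecules, averaged 549 in the flank and 535 in ventral anterior skin, against 96.4 in ventral posterior skin. For CRABP1 they were HIC1 (r = 0.81, and 0.94 over the location means), CCND1, PRKCB, HSPD1, WNT5B, MSC, DCN and HS1BP3, with r down to 0.77. WNT5B, a WNT ligand gene, averaged 1296 in the flank, 1031 in ventral anterior skin and 390 in ventral posterior skin (r = 0.98 over the location means). DCN, a dermal proteoglycan gene, averaged 31182 in ventral anterior and 23599 in flank skin, against 19763 in ventral posterior skin. Unlike CRABP1 it was not lowest there, with 17364 in ventral-most, 15257 in dorsal saddle and 14082 in dorsal posterior skin.

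On the chromosomes, TMC1 began 22.7 kb after ALDH1A1 and had its highest mean in the flank, set by replicate 3. It had 580, 92.7 and 83.3 normalised counts in flank replicates 3, 8 and 11, with the highest count in the library that was highest in ALDH1A1, and r over the 21 libraries was 0.49. Ventral-most replicate 11, with 105, stood above flank replicates 8 and 11. TMC1 differed among locations (limma adjusted p = 0.00528) but not between dorsal and ventral skin (-0.75, adjusted p = 0.384). On the other side ANXA1 ended 95.8 kb before ALDH1A1 and was higher in dorsal skin by 0.75 (SE 0.22, adjusted p = 0.0246), opposite to ALDH1A1. Farther off, RORB was not called among the locations (adjusted p = 0.227) and ZFAND5 was (0.0240), with a flank mean of 7509. ZFAND5 had 11653, 5574 and 5301 in flank replicates 3, 8 and 11, and 5764 in ventral-most replicate 11.

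Of the neighbours of ALDH1A2, LIPC differed among locations (limma adjusted p = 0.0112). It had 24.3, 227 and 345 normalised counts in ventral anterior replicates 3, 8 and 11, the lowest again in replicate 3, and at most 11 elsewhere. AQP9, which ended 14.8 kb before ALDH1A2, was not called (adjusted p = 0.854), nor were MYZAP (0.0742) and CGNL1 (0.177). AQP9 was also lowest in ventral anterior replicate 3, with 1.95 against 539 and 324 in replicates 8 and 11, and had 18.2 to 395 elsewhere. None of the neighbours of CRABP1 was called among the locations: the adjusted p was 0.189 for SKIC8, 0.191 for IDH3A, 1.0 for HYKK and 0.788 for PSMA4. No other table entry overlapped ALDH1A1, ALDH1A2 or CRABP1.

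Among markers of other tissues, the summed level of the neuron genes was higher in the flank and ventral anterior skin than in the other libraries, led by STMN2, and not every gene of the list followed it. Of 9 neuron genes listed, 6 had a symbol, and their sum was 1886 to 4039 in the flank and 1179 to 1639 in ventral anterior skin, against 549 to 1102 in the other ventral and 614 to 1177 in the dorsal libraries. STMN2 had 1691, 3359 and 1224 in flank replicates 3, 8 and 11, with a flank difference of 4.18 (SE 0.94, limma adjusted p = 0.0208). That call ended without flank replicate 3 (0.0835) or 8 (0.127). NEFM was high in ventral anterior skin instead, with 358, 426 and 136, and had at most 4.06 in the flank. There it was lower than the mean of the other ventral locations by -3.46 (SE 0.81, adjusted p = 0.0263), a call that ended without flank replicate 3 (0.137) or 8 (0.148). Ventral-most skin was also near 0 in NEFM, with at most 4.54, and ventral posterior skin had 4.18, 5.48 and 22.6. SYT1 had 181, 141 and 245 in the flank, against 316 to 560.5 in dorsal libraries, with a flank difference of -0.59 (SE 0.20, adjusted p = 0.139). Of the 4 neuron genes tested, 1 was thus called higher and 1 lower in the flank (1.61% and 1.44% of all genes). Their median flank difference was 0.00, as it was over all genes. ELAVL3 had at most 2.02 normalised counts in any library. The part of neurons in the levels of ALDH1A1, ALDH1A2 and CRABP1 was not tested.

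The single mesothelium and kidney gene tested, WT1, had 653 normalised counts in ventral anterior replicate 3 against 0 and 7.63 in replicates 8 and 11, the library that stood apart in ALDH1A1, ALDH1A2 and CYP26A1. Its part in those values was not tested. Skeletal muscle genes summed to between 3157 and 9680.3 in ventral anterior skin and to between 32.5 and 5089 elsewhere. Of 5 tested, MYOG was called higher in ventral anterior skin than at the other ventral locations (limma adjusted p = 0.0448), where 3% of all genes were called. The smallest dorsal minus ventral adjusted p among these muscle genes was 0.591, for DES. Against ventral skin, 4 of 4 epidermal, 4 of 4 melanocyte and 2 of 2 neural crest genes were called higher dorsally (9.31% of all genes). Called lower dorsally were 2 of 5 dermal, 3 of 5 endothelial and 1 of 2 limb bud genes (7.89% of all genes). The 2 limb bud genes summed to between 2231 and 2386 in ventral posterior skin, where ALDH1A2 and CRABP1 were lowest, against at most 1125 in any other library. PITX1, a hindlimb gene, set that sum with 2037, 2111 and 1866 in ventral posterior replicates 3, 8 and 11, and was higher there than at the other ventral locations by 6.74 (SE 1.03, adjusted p = 0.00226), whereas HAND2 was not called there (-0.40, SE 0.60, adjusted p = 0.956). The dermal genes DCN (0.63, SE 0.10, adjusted p = 0.00121) and LUM (0.99, SE 0.22, adjusted p = 0.0164) were higher in ventral anterior skin than at the other ventral locations, where 3% of all genes were called. Not every dermal gene followed them. PDGFRA had 2037, 1540 and 2770 in ventral anterior replicates 3, 8 and 11, against 3107, 4465 and 3010 in ventral posterior skin. TWIST1 had 1039, 329 and 511 against 1307, 624 and 961 in the same order. The endothelial gene ERG was lower in the flank (-0.71, SE 0.15, adjusted p = 0.0155) and higher in ventral-most skin (0.83, SE 0.15, adjusted p = 0.0161). Of 4 neuron genes 1 was called higher and 1 lower dorsally (9.31% and 7.89% of all genes). The spinal cord, erythroid and mesothelium and kidney lists had 1 tested gene each, with dorsal minus ventral adjusted p of 0.340 for FABP7, 0.0689 for EPB42 and 0.699 for WT1. Melanocyte genes summed to between 1271 and 5734 in dorsal and between 139 and 1054 in ventral libraries. The part of these lists in the differences of ALDH1A1, ALDH1A2 and CRABP1, between the sides or among the ventral locations, was not tested.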

How the data were processed

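RNA was sequenced from 21 skin libraries. Per the labels' protocols, total RNA was amplified with SMART-Seq v4, which marks neither strand nor single molecules, and libraries were made with Nextera XT. Per the submitters' processing notes the tools were FastQC, Picard, SAMtools, STAR 2.4.0 and DESeq2. No source used here names the build or the counting program. The deposited values are a signal per gene: counts divided by a size factor per library by the authors, per the file headers. Dividing each column by its smallest step gave whole reads for 100.0% of values within 0.01 reads.

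Symbols came from a RefSeq gene table by Entrez identifier or from the deposited name, for 8546 of 18202 genes. Genes that reached 10 in 3 or more libraries were tested with limma 3.58.1 (R 4.3.3, trend and robust moderation) on log2(value + 1) in a single fit, and the script was tested on simulated data. edgeR 4.0.16 and DESeq2 1.42.0 on recovered reads, other pseudocounts, filters and scalings, omitted libraries and a replicate block were alternatives. Libraries with the same number deviated together from their location means (r from 0.27 to 0.53 over 63 pairs). The negative r of the other pairs (-0.32 to -0.05 over 126 pairs) follows from that, since deviations within a location cancel out. The numbers were therefore taken to pair libraries in the replicate block, which is an alternative only. The main fit holds no replicate term, so its tests are not paired. The members and lists were chosen with earlier results of these data known. Named genes were the members, called genes of the retinoic acid lists with receptors, degrading enzymes and family relatives, the 8 closest genes by r per member with a log2 level of at least 5 at their highest location, the nearest 2 named neighbours a side, and other-tissue markers. A listed gene that is part of the counts is not reported here by name.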

Additional observations from a re-analysis of the deposited data

Results flagged for a closer look

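The anterior-posterior difference of CRABP1 was not the same on the back and on the belly, by the test of the difference itself. Dorsal anterior minus dorsal posterior was 1.60 and ventral anterior minus ventral posterior was 5.34, and the first minus the second was -3.74 (SE 0.60, limma adjusted p = 0.00847). Without all libraries numbered 3 it was -4.10 (adjusted p = 0.104) and without those numbered 8 it was -3.08 (adjusted p = 0.376), neither of which was called. Such omissions left 0 to 37 genes called for this difference of differences, against 116 in the main fit. Both differences were positive within each of the replicate numbers 3, 8 and 11, with level ratios of 3.14, 2.83 and 3.14 on the back and 25.5, 94.2 and 27.6 on the belly.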

How the results depend on the processing

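The 31 differences of ALDH1A1, ALDH1A2 and CRABP1 were recomputed under up to 35 other settings each, 1051 values in all, of which 992 kept direction and side of the threshold. For ALDH1A1 and CRABP1 dorsal minus ventral, and for CRABP1 in ventral anterior against ventral posterior skin and in the flank, every setting kept the call. The size of the ALDH1A1 dorsal minus ventral difference ran from -8.24 to -3.85 over the settings other than leaving out a library or a replicate number. In edgeR or DESeq2 ALDH1A1 was no longer called for ventral anterior skin (-2.15 and -2.17), nor in DESeq2 for the flank (3.53). ALDH1A2 became called for ventral anterior skin (2.10 in both tools) and, in DESeq2, for the difference between anterior-posterior differences (-4.39). CRABP1 was no longer called for ventral-most skin in edgeR (-1.63), and in DESeq2 became called for dorsal anterior minus dorsal posterior (1.60) and dorsal saddle skin (-1.40). With only the libraries compared, calls ended for ALDH1A1 in ventral anterior (-4.0) and flank skin (4.0), ALDH1A2 ventral anterior minus ventral posterior (4.11) and CRABP1 in ventral-most skin (-1.84). In that setting, where the compared locations alone set the spread, CRABP1 became called for dorsal anterior minus dorsal posterior (1.60) and dorsal saddle skin (-1.41). The replicate block changed 1 call, CRABP1 dorsal anterior minus dorsal posterior (1.60, adjusted p = 0.0284 in limma). The causes of these changes were not tested.

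Leaving out a library or a replicate number gave the following ranges where a call or a sign changed. ALDH1A1 ran from 8.25 to 9.35 for any difference, from -5.41 to -2.16 for ventral anterior minus ventral posterior, from -5.79 to -2.54 for ventral anterior, from -1.84 to 0.49 for ventral-most and from 3.34 to 4.59 for flank skin. ALDH1A2 ran from 4.72 to 5.93 for any difference, from -0.41 to 0.90 for dorsal minus ventral, from -0.0083 to 0.62 for dorsal anterior minus dorsal posterior, from 3.36 to 5.38 for ventral anterior minus ventral posterior and from -4.84 to -2.90 for the difference of these. It ran from -0.15 to 0.56 for dorsal posterior (also -0.07 without dorsal posterior replicate 8), from 1.05 to 2.70 for ventral anterior, from 2.72 to 3.62 for flank and from -4.72 to -3.31 for ventral posterior skin. CRABP1 ran from 1.54 to 1.65 for dorsal anterior minus dorsal posterior, from -4.10 to -3.08 for the difference of anterior-posterior differences, from 1.84 to 1.98 for dorsal anterior and from -2.46 to -1.48 for ventral-most skin.

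The number of genes called moved by more than 1.5 times with the tool and the block. Among the 7 locations it was 2152, 3462 in DESeq2 and 4208 with the replicate block, and for dorsal minus ventral 2409 and 4084 with the block. For ventral anterior minus ventral posterior it was 246, 499 in DESeq2, 589 with the block and 41 with only the libraries compared, and for the flank 427, 774, 1021 and 228 in the same order. The counts in that order were 318, 598, 740 and 128 for dorsal anterior minus dorsal posterior, 116, 380, 411 and 34 for the difference of anterior-posterior differences, 287, 518, 610 and 142 for dorsal anterior, 121, 379, 475 and 69 for dorsal posterior, 420, 751, 884 and 257 for ventral anterior, 95, 316, 339 and 35 for ventral-most and 154, 403, 478 and 86 for ventral posterior skin. Dorsal saddle skin gave 20, with 93 in DESeq2, 57 with the block, 11 with no filter and 9 without trend and robust moderation. Leaving out a replicate number gave 244 to 1223 calls among the locations and 813 to 1709 for dorsal minus ventral. It gave 27 to 165 for ventral anterior minus ventral posterior and 0 to 37 for the difference of anterior-posterior differences. It gave 17 to 382 for the flank, 34 to 297 for ventral anterior, 0 to 39 for ventral-most and 6 to 69 for ventral posterior skin. In every comparison these counts were below the main count. How far a call lost there is particular to its gene was not tested. ALDH1A1 within dorsal skin and its difference of anterior-posterior differences are not reported, since 3 dorsal reads set the limit there.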
